A study of Rattus norvegicus with 6 samples.

Results

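The 10 genes described here, Gap43, Stmn4, Sprr1a, Gpm6a, Marcks, Ecel1, Flrt3, Csrp3, Gadd45a and Nptx1, are growth cone and regeneration effector genes, taken by their symbols from a deposited table of 22864 rat genes. All 10 were in the table and 9 passed the filter on low counts, with 15531 genes tested in all; Sprr1a did not pass. RNA sequencing was done on ipsilateral L4-6 dorsal root ganglia (DRG), the clusters of sensory neuron cell bodies that serve the hind limb, of wild-type (WT) rats. In CPIP+Veh and CPIP+ETA, an O-ring of 5.5 mm inner diameter, the size given for male rats, was tied near the ankle for 3 h under pentobarbital; CPIP is the field's name for chronic post-ischaemia pain. Sham+Veh rats had the same anaesthesia and no ring. Daily intrathecal injections of vehicle (Veh) or of etanercept (ETA), a decoy receptor that binds the cytokine TNF, began 2 days after the procedure, and tissue was taken on day 7. Each group had 2 libraries, numbered 1 and 2; the sources used here give neither the age and strain of the rats nor whether libraries 1 and 2 are different animals. The p-values then measure only how far these libraries spread, which may be technical.

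When the axon of a sensory neuron is damaged, the cell body switches from conducting signals to regrowing its fibre, and the new tip, the growth cone, crawls forward by turning over actin and microtubules beneath its membrane. Growth cone proteins such as GAP-43 carry signals from the membrane to that skeleton, stathmins hold free tubulin, and adhesion proteins read the surroundings. A second set of genes, among them Sprr1a, Csrp3, Ecel1 and Gadd45a, is known for induction in DRG neurons after nerve injury in rats and mice.

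Library totals were 18285251 to 19981250 counts. Neuronal markers were present in every library: all 16 were detected, and their summed level was 40599.7 to 45496 CPM (counts scaled to a common library size by the TMM method). The 10 spinal cord markers summed to 226 to 264 CPM, of which Slc17a7, a glutamate transporter that sensory neurons also express, made up 214 to 251 CPM. Cspg5 stood at 7.81 to 10.9 CPM, Aqp4 at up to 4.18 CPM and Mog at up to 1.08 CPM, and Olig2 was at 0 in 5 of 6 libraries. In bulk tissue, fewer cells of a type and less RNA per cell cannot be told apart. All levels below are TMM-scaled CPM and are not set against each other between genes, since transcript lengths were not used here.

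The 10 genes were selected on the measured differences between groups in these same libraries. Those differences are therefore a description, no p-value is given for a single one of the 10, and nothing is read from how their counts of calls compare with those over all genes. In CPIP+Veh against Sham+Veh, 8 of the 9 tested genes had a log2 fold change above 0, with a median of 0.49, beside a median of -0.003 and 49.0% above 0 over all genes tested. Csrp3, which is among the 8, passed the filter only through its CPIP+Veh counts, 24 and 43. It did not pass when only CPIP+ETA and sham were fitted, so its place among the tested genes depends on the group where it is high. Both CPIP+Veh libraries lay above both sham libraries for 9 of the 10 genes, a pattern found for 17.6% of all genes tested (19.5% had the reverse). The edgeR quasi-likelihood test, with Benjamini-Hochberg adjustment over all genes, called 0 of the 9 genes and 0.0193% of all genes. At an unadjusted p under 0.05 there were 7 of the 9 genes and 4.94% of all genes. DESeq2 called 3 of the 9, beside 49 of the 15531 genes tested, and limma-voom called 0 of the 9, beside 2. Without CPIP+Veh 2 the median was 0.30.

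**Figure D1:**
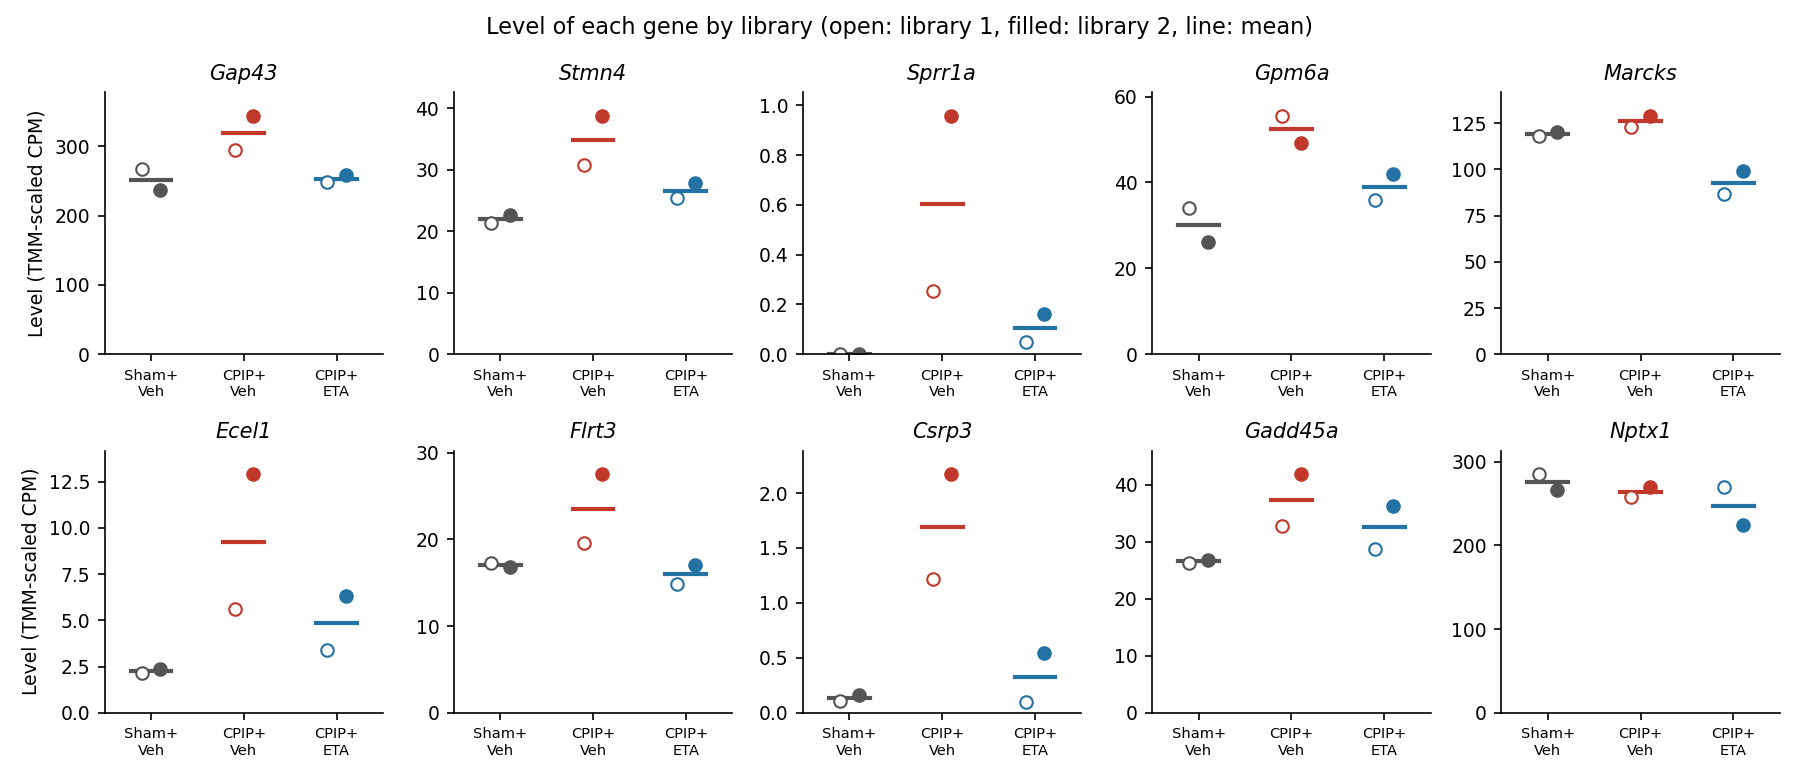
Level of each of the 10 genes (y axis, TMM-scaled CPM from 0) in the 3 groups (x axis), with library 1 as open and library 2 as filled circles and the group mean as a line. CPIP+Veh is above sham in both libraries for every gene shown but Nptx1, and Marcks stands lowest in CPIP+ETA.

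The genes of the growth cone membrane and its skeleton were already expressed in sham ganglia and differed by modest amounts. Gap43, a membrane-bound substrate of protein kinase C that binds calmodulin and is the classical growth cone marker, stood at 267 and 237 CPM for sham, 295 and 344 for CPIP+Veh, with CPIP+ETA at 248 and 259. Its CPIP+Veh libraries were the highest of the 6, and its CPIP+ETA libraries lay within the sham range. The log2 fold change was 0.35 (SE 0.091) for CPIP+Veh against sham, or 0.23 without CPIP+Veh 2, and 0.01 (SE 0.091) for CPIP+ETA against sham.

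Stmn4, a brain-type stathmin that binds tubulin and regulates microtubule turnover, stood at 21.4 and 22.7 CPM for sham, 30.8 and 38.8 for CPIP+Veh, with CPIP+ETA at 25.4 and 27.9. The 3 groups did not overlap, with CPIP+ETA between the others. Its log2 fold change against sham was 0.66 (SE 0.12) in CPIP+Veh and 0.27 (SE 0.13) in CPIP+ETA. Gpm6a, a four-pass membrane glycoprotein of the proteolipid family that promotes filopodia, showed the same order of groups. It stood at 34.1 and 26.2 CPM for sham, 55.5 and 49.2 for CPIP+Veh, with CPIP+ETA at 35.9 and 41.9. Its log2 fold change against sham was 0.80 (SE 0.14) in CPIP+Veh and 0.37 (SE 0.14) in CPIP+ETA, the latter being 0.19 without Sham+Veh 2 and 0.58 without Sham+Veh 1. Of the 10 genes it alone was higher in CPIP+Veh 1 than in CPIP+Veh 2.

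Marcks, a protein kinase C substrate that tethers actin to the membrane, followed another order. It stood at 118 and 120.1 CPM for sham, 123 and 129 for CPIP+Veh, with CPIP+ETA at 86.5 and 98.9. CPIP+Veh was barely above sham (log2 fold change 0.08, SE 0.074), whereas both CPIP+ETA libraries were below all 4 others. Fibroblast markers were below sham in both CPIP groups: their summed level over 7 genes was 3626 and 3871 CPM for sham, 2846 and 3481 for CPIP+Veh, with CPIP+ETA at 2302 and 2934. By fitted log2 fold change all 7 were below sham in CPIP+ETA, with a median of -0.50, and also in CPIP+Veh, with a median of -0.32, where Marcks was at 0.08. The fibroblast sums of CPIP+ETA and CPIP+Veh overlapped, whereas the Marcks levels did not, and none of the 7 markers was at 0 in both libraries of a group. The part of these cells in the Marcks values was not tested.

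Flrt3, a leucine-rich-repeat membrane protein that binds UNC5 receptors and latrophilins in axon guidance, stood at 17.3 and 16.8 CPM for sham, 19.6 and 27.5 for CPIP+Veh, with CPIP+ETA at 14.9 and 17.0. CPIP+Veh 2 was far above the other 5 libraries. The log2 fold change against sham was 0.47 (SE 0.17) with both CPIP+Veh libraries and 0.20 without CPIP+Veh 2. Nptx1, a secreted neuronal pentraxin that gathers AMPA-type glutamate receptors, stood at 285 and 266 CPM for sham, 258 and 270.0 for CPIP+Veh, with CPIP+ETA at 269.8 and 225. All 3 groups overlapped, and its log2 fold change against sham was -0.06 (SE 0.09) in CPIP+Veh and -0.15 (SE 0.091) in CPIP+ETA. With 1 library left out these ran from -0.11 (without Sham+Veh 2) to 0.00 (without Sham+Veh 1), and from -0.28 (without CPIP+ETA 1) to -0.02 (without CPIP+ETA 2).

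**Figure D2:**
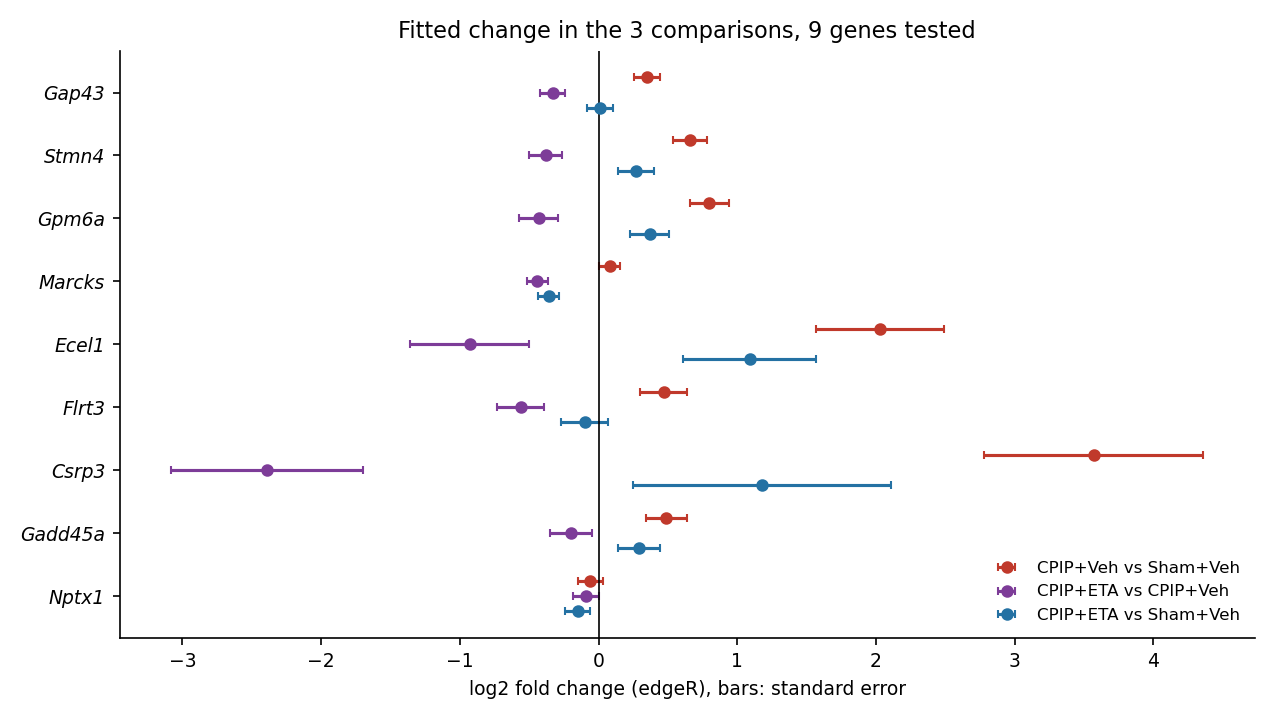
Fitted log2 fold change (x axis) of the 9 tested genes (y axis) in the 3 comparisons, with the standard error as bars. Csrp3 and Ecel1 lie farthest from 0 with the widest bars, at 3.57 and 2.03 for CPIP+Veh against sham, while Marcks is near 0 there and at -0.44 for CPIP+ETA against CPIP+Veh.

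Of the genes known for induction by injury, Ecel1, a membrane protein of the neprilysin protease family first described as damage-induced in neurons, stood at 2.17 and 2.35 CPM for sham, 5.62 and 12.9 for CPIP+Veh, with CPIP+ETA at 3.38 and 6.32. Every CPIP library exceeded both sham libraries, and the etanercept and vehicle libraries overlapped. Against sham the log2 fold change was 2.03 (SE 0.46) in CPIP+Veh, or 1.31 without CPIP+Veh 2, and 1.09 (SE 0.48) in CPIP+ETA, or 0.58 without CPIP+ETA 2.

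Gadd45a, a stress-induced protein of growth arrest and DNA damage responses, stood at 26.3 and 26.8 CPM for sham, 32.8 and 41.8 for CPIP+Veh, with CPIP+ETA at 28.7 and 36.3. As with Ecel1, all CPIP libraries lay above sham and the 2 CPIP groups overlapped. The log2 fold change against sham was 0.49 (SE 0.15) in CPIP+Veh, or 0.30 without CPIP+Veh 2, and 0.29 (SE 0.15) in CPIP+ETA, with 0.12 without CPIP+ETA 2 and 0.46 without CPIP+ETA 1.

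Csrp3, the muscle LIM protein, is an actin-associated protein of striated muscle that is also induced in injured sensory neurons of rodents. It was counted 2 and 3 times for sham, 24 and 43 times for CPIP+Veh, with CPIP+ETA at 2 and 10. Both CPIP+Veh libraries were above the other 4, and CPIP+ETA 1 was at the sham level. The counts of CPIP+Veh and sham, scaled to library totals, had a ratio of 12.4 (95% exact interval 5.06 to 39.4), and those of CPIP+ETA and sham a ratio of 2.30 (0.754 to 8.33). These intervals cover counting error only.

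Skeletal muscle transcripts varied between libraries as well. The summed level of 16 muscle markers, leaving out Pvalb, which large sensory neurons also express, was 19.3 and 37.0 CPM for sham, 20.3 and 96.3 for CPIP+Veh, with CPIP+ETA at 13.6 and 56.3. In CPIP+Veh 1 the muscle sum lay within the sham range, and Csrp3 stood at 1.22 CPM there against 0.108 and 0.164 in sham. In each of the 3 groups library 2 was the higher for Csrp3 and for the muscle sum. The part of muscle RNA in the Csrp3 values was not tested. Of the defining muscle markers, Acta1 ran from 6.50 to 31.1 CPM, Ckm from 0.806 to 11.6 and Myh4 from 0.304 to 3.32.

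**Figure D3:**
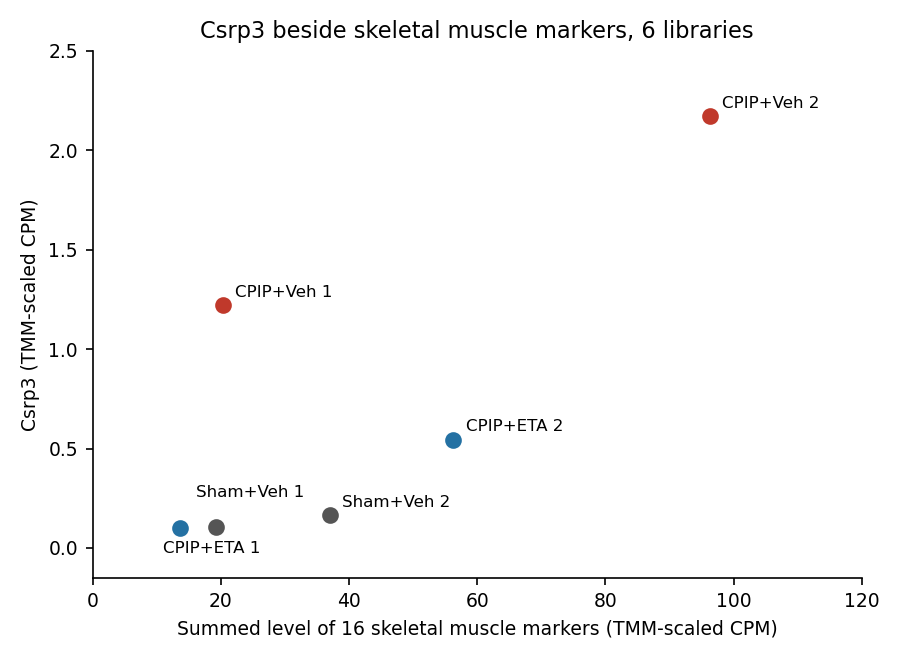
Csrp3 (y axis, TMM-scaled CPM) against the summed level of 16 skeletal muscle markers without Pvalb (x axis, TMM-scaled CPM), 1 point per library. CPIP+Veh 1 combines a muscle sum of 20.3, within the sham range, with a Csrp3 level of 1.22.

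Sprr1a, a small proline-rich protein of the skin barrier that regenerating axons also make, was near the limit of detection. It was counted 0 times in both sham libraries, 5 and 19 times in CPIP+Veh, and 1 and 3 times in CPIP+ETA. With a floor of 3 counts taken for the sham group, the ratio of CPIP+Veh to sham was 7.40. It leaves out the counting error of the 24 CPIP+Veh counts, of which 19 came from CPIP+Veh 2. The ratio of CPIP+ETA to CPIP+Veh was 0.173 (95% exact interval 0.0435 to 0.503), again for counting error only. Sprr1b, of the same family, was listed at 0 in all 6 libraries, and how reads that match both genes would be counted is not given in the sources used here. Of the defining keratinocyte markers, Krt5 did not exceed 0.383 CPM and Krt14 0.328, while Krt10 stood at 2.0 to 2.88 CPM. The whole list summed to 2.71 to 3.87 CPM. The part of skin RNA in the Sprr1a values was not tested.

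The DNA just upstream of these genes was looked up in RefSeq (build GRCr8; 300 bases per gene, from 250 before to 50 after the annotated start), newer than the build named for the data. Of the 10 genes 6 had an entry: Sprr1a, Gpm6a, Marcks, Ecel1, Flrt3 and Gadd45a. Both strands were searched for 5 short motifs, chosen after the sequences were seen: the AP-1 element TGANTCA, the CRE TGACGTCA, the octamer ATTTGCAT, the CCAAT box CCAAT and the TATA sequence TATAAA. AP-1 is the class of site bound by Jun and Fos family proteins, which are prominent in axon injury. The 3 windows that held an AP-1 or octamer match are shown, with every motif match in capitals.

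Sprr1a, chr2:180752576-180752875, minus strand: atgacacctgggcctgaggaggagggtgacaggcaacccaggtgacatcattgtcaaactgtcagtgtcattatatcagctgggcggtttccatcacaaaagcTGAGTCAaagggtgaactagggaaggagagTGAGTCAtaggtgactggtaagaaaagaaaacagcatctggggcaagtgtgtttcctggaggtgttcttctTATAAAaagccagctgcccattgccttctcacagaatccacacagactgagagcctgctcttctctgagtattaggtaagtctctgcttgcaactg
Gadd45a, chr4:97486750-97487049, minus strand: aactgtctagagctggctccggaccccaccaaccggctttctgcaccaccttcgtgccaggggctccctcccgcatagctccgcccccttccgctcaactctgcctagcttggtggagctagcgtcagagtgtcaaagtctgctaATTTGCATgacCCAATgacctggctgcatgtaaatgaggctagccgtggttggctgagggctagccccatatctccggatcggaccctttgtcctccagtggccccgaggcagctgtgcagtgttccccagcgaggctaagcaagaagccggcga
Gpm6a, chr16:43706412-43706711, minus strand: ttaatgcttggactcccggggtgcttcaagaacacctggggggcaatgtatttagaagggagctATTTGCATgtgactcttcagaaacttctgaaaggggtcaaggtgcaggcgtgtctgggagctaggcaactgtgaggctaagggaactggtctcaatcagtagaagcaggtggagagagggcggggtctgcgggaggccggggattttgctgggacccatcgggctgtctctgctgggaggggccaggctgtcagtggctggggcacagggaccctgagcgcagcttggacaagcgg

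The Sprr1a window held 2 AP-1 elements, which began at positions -147 and -117 relative to the start, and a TATA sequence that began at -46. Among 33469 promoter windows, 7.33% held an AP-1 element and 0.415% held 2 or more. Gadd45a and Gpm6a each held the octamer, found in 1.78% of windows, beginning at -105 and -186. A CCAAT box, present in 37.5% of windows, was in Gadd45a and Marcks, a TATA sequence was in 14.2% of windows, and the CRE, present in 1.83%, was in 0 of the 6. None of the 5 motifs matched in the Ecel1 or Flrt3 window. The motifs were chosen after these sequences were seen, so the shares over all windows do not measure how unusual the matches are. A match describes letters and is not evidence of binding.

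The etanercept group was compared with CPIP+Veh to see how the drug bore on these genes in the model. The CPIP+Veh libraries are shared with the comparison against sham, so a chance deviation in them pushes the 2 comparisons in opposite directions. All 9 tested genes had a log2 fold change below 0, with a median of -0.43 beside -0.002 over all genes, or -0.22 without CPIP+Veh 2. Csrp3, which is among the 9, passed the filter only through its CPIP+Veh counts. Both CPIP+ETA libraries lay below both CPIP+Veh libraries for 7 of the 10 genes, against 16.9% of all genes tested (15.7% had the reverse). The exceptions were Ecel1, Gadd45a and Nptx1, whose groups overlapped. With edgeR 0 of the 9 genes and 0% of all genes were called. At an unadjusted p under 0.05 there were 6 of the 9, all lower, and 5.15% of all genes.

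In this comparison the log2 fold changes of the membrane and skeleton genes were close to each other. Gap43 had -0.33 (SE 0.091), Stmn4 -0.38 (SE 0.12), Gpm6a -0.43 (SE 0.14), Marcks -0.44 (SE 0.074) and Flrt3 -0.56 (SE 0.17). Leaving out CPIP+Veh 2 brought Stmn4 to -0.21 and Flrt3 to -0.30, and Gap43 to -0.22. Of the genes known for induction by injury, Csrp3 was at -2.39 (SE 0.69), Ecel1 at -0.93 (SE 0.43) and Gadd45a at -0.20 (SE 0.15). Leaving out 1 library at a time moved Ecel1 between -1.45 (without CPIP+ETA 2) and -0.22 (without CPIP+Veh 2), and Gadd45a between -0.38 and -0.01 without the same libraries. Nptx1, at -0.09 (SE 0.091), was at 0.03 without CPIP+ETA 2 and at -0.23 without CPIP+ETA 1. Csrp3 had -3.99 without CPIP+ETA 2 and -1.62 without CPIP+ETA 1. DESeq2 called 1 of the 9 genes, beside 21 of the 15531 genes tested, and limma-voom called 0 over the whole table.

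CPIP+ETA was also set against sham. The median over the 9 tested genes was 0.27, beside -0.002 over all genes, and 6 of 9 were above 0, but it was 0.05 without CPIP+ETA 2. Csrp3, which is among the 6, passed the filter only through its CPIP+Veh counts. With only CPIP+ETA and sham fitted, Csrp3 did not pass, and the median of the tested genes was 0.15. Both CPIP+ETA libraries lay above sham for 5 of the 10 genes, Stmn4, Sprr1a, Gpm6a, Ecel1 and Gadd45a, and below it for Marcks. Over all genes tested the shares were 17.2% higher and 18.5% lower. Again edgeR called 0 of the 9 genes and 0.0193% of all genes. DESeq2 and limma-voom each called 0 of the 9, beside 50 and 1 of the 15531 genes tested. There were 2 of the 9 at an unadjusted p under 0.05, 1 higher and 1 lower, and 6.37% of all genes. Marcks had a log2 fold change of -0.36 (SE 0.074). The direction of Csrp3 rested on 1 library, since its log2 fold change of 1.18 (SE 0.93) was -0.41 without CPIP+ETA 2 and 1.96 without CPIP+ETA 1.

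Libraries 1 and 2 differed in a common direction for most of the 10 genes in CPIP+Veh and in CPIP+ETA, but not in sham. In CPIP+Veh 9 of the 10 genes were higher in library 2 than in library 1, with a median log2 difference of 0.33 over the tested genes, and in CPIP+ETA 9 of the 10 as well, with a median of 0.19. In sham 5 of the 10 were higher in library 2, with a median of 0.03. Over all genes tested, 50.4% were higher in library 2 of CPIP+Veh and 51.1% in library 2 of sham, and in CPIP+ETA about as many were higher as lower. CPIP+Veh 2 held the highest level of 8 of the 10 genes, where 16.1% of all genes tested peaked in that library. The ratio of library 2 to library 1 in CPIP+Veh was 3.79 for Sprr1a, 2.29 for Ecel1, 1.78 for Csrp3, 1.41 for Flrt3, 1.28 for Gadd45a, 1.26 for Stmn4 and 1.17 for Gap43, with Marcks and Nptx1 each at 1.05 and Gpm6a at 0.886. The injury transcription factor Atf3 had the same order, at 16.3 and 42.1 CPM in CPIP+Veh, with CPIP+ETA at 6.20 and 23.1, against 7.69 and 6.90 in sham.

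**Figure D4:**
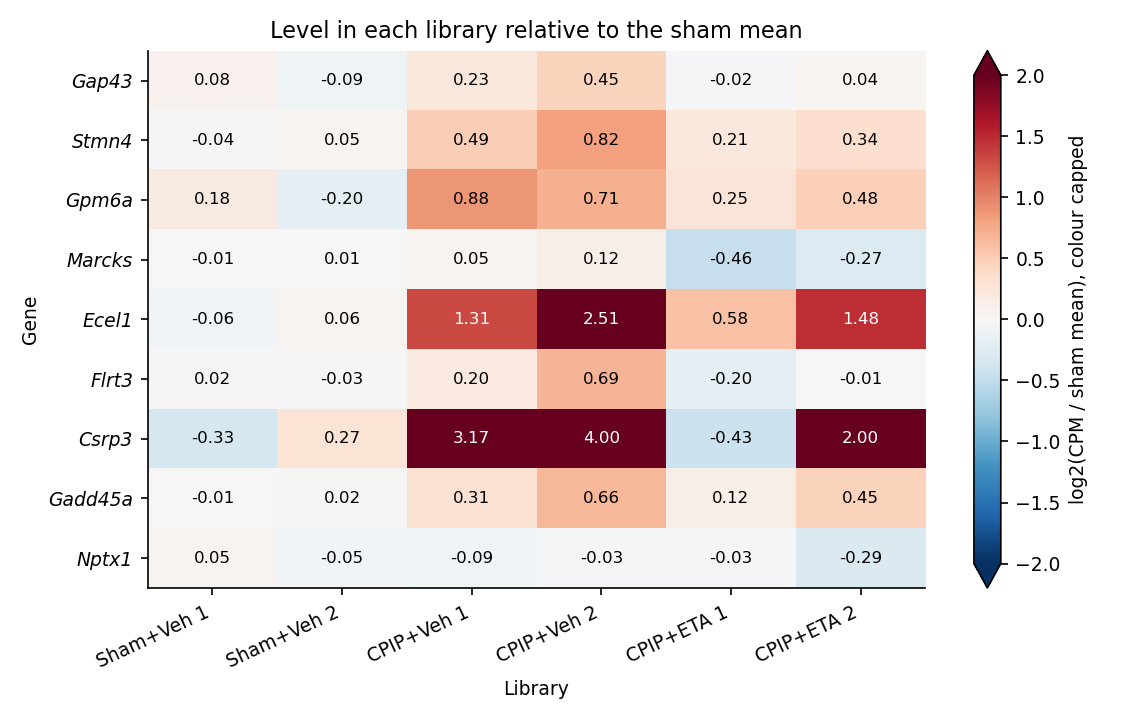
Level of the 9 tested genes (rows) in each of the 6 libraries (columns) as the log2 ratio to the sham mean, printed in each cell and coloured from blue (lower) to red (higher), with colours capped. Ecel1 goes from 1.31 in CPIP+Veh 1 to 2.51 in CPIP+Veh 2 and from 0.58 in CPIP+ETA 1 to 1.48 in CPIP+ETA 2, while Marcks is below 0 in both CPIP+ETA libraries.

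Across the 6 libraries, Pearson correlations of log2 levels describe which genes had like patterns; the libraries share group and processing, so no p is given. Ecel1 and Gadd45a (r = 0.99), Ecel1 and Stmn4 (0.98), Csrp3 and Stmn4 (0.94), Gadd45a and Stmn4 (0.94) and Gap43 and Flrt3 (0.94) were the closest pairs. Marcks and Nptx1 stood apart, with median correlations to the other tested genes of 0.30 and -0.24, against 0.77 to 0.87 for the other 7. These 2 also had the smallest log2 fold changes for CPIP+Veh against sham, 0.08 and -0.06. The genes were selected on group differences in these same libraries, so likeness among them follows in part from that selection. Outside the set, 9738 genes with a mean of at least 10 CPM were ranked by this measure, and 68 to 108 of them exceeded 0.9 with any 1 of the 9 genes. With 6 libraries and this many genes, correlations as high also arise between unrelated genes, and how many would was not tested. The genes named next are therefore a description of pattern only.

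Cacna2d1, the calcium channel subunit that binds gabapentin, came nearest to Ecel1 (r = 0.985) and second for Stmn4 (0.998), at 144 and 148 CPM for sham, 185 and 219 for CPIP+Veh, with CPIP+ETA at 159 and 175. For Stmn4 the others were the tetraspanin Tspan13 (0.999) and the kinesin motor Kif3a (0.995), and for Ecel1 the tetraspanin Cd151 (0.982) and Tmem141 (0.981). Gap43 was most like Adcyap1 (0.977), which encodes the neuropeptide PACAP, the Rab regulator Gdi2 (0.974) and the Polycomb protein Rnf2 (0.973). Flrt3 was most like the small GTPases Rab33b (0.992) and Rhoc (0.988) and the DNA repair factor Xrcc4 (0.984), and Gadd45a like the cytokine receptor chain Il13ra1 (0.988), the GABA-A receptor subunit Gabrg1 (0.977) and the sterol synthesis enzyme Mvd (0.976). Nearest to Csrp3 were Mrfap1 (0.994), Cebpz (0.992) and Arl10 (0.988), and to Gpm6a Stard3nl (0.996), Thoc2 (0.988) and Ik (0.986). Pml (0.987), Rfx5 (0.982) and Txnl1 (0.982) came closest to Marcks, and Gfm1 (0.989), Gmppa (0.988) and Tbc1d7 (0.984) to Nptx1.

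Close relatives of the 10 genes were set beside them, without a test of the difference. Of 18 tested relatives edgeR called 0 in each of the 3 comparisons, and the median log2 fold change for CPIP+Veh against sham was -0.01. In that comparison Stmn1, Stmn2 and Stmn3, the other stathmins, had 0.11, 0.12 and 0.07 where Stmn4 had 0.66. Gpm6b, of the same protein family as Gpm6a, had 0.09 beside 0.80. The endothelin-converting enzymes Ece1 and Ece2 had -0.13 and -0.15 and neprilysin, Mme, 0.01. Flrt1 and Flrt2 had -0.02 and -0.15, and the LIM proteins Csrp1 and Csrp2 -0.07 and -0.16.

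Some relatives differed from their partner in the order of the groups. Basp1, a growth cone protein that acts much like GAP-43, stood at 129.9 and 137 CPM for sham, 95.8 and 124 for CPIP+Veh, with CPIP+ETA at 131 and 138, so that its lowest libraries were those in which Gap43 was highest. Marcksl1 stood at 29.1 and 38.9 CPM for sham, 21.3 and 26.8 for CPIP+Veh, with CPIP+ETA at 19.5 and 21.7, with all 4 CPIP libraries below sham (log2 fold change -0.50, SE 0.17, for CPIP+Veh). Gadd45g differed from Gadd45a with etanercept: it stood at 7.04 and 6.62 CPM for sham, 8.40 and 9.68 for CPIP+Veh, with CPIP+ETA at 11.0 and 12.9. Nptx2, an activity-regulated pentraxin, was above sham in all 4 CPIP libraries, at 83.1 and 76.1, 92.6 and 96.3, and 91.5 and 94.2 CPM, while Nptx1 overlapped. None of these genes passed edgeR's test over all genes.

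**Figure D5:**
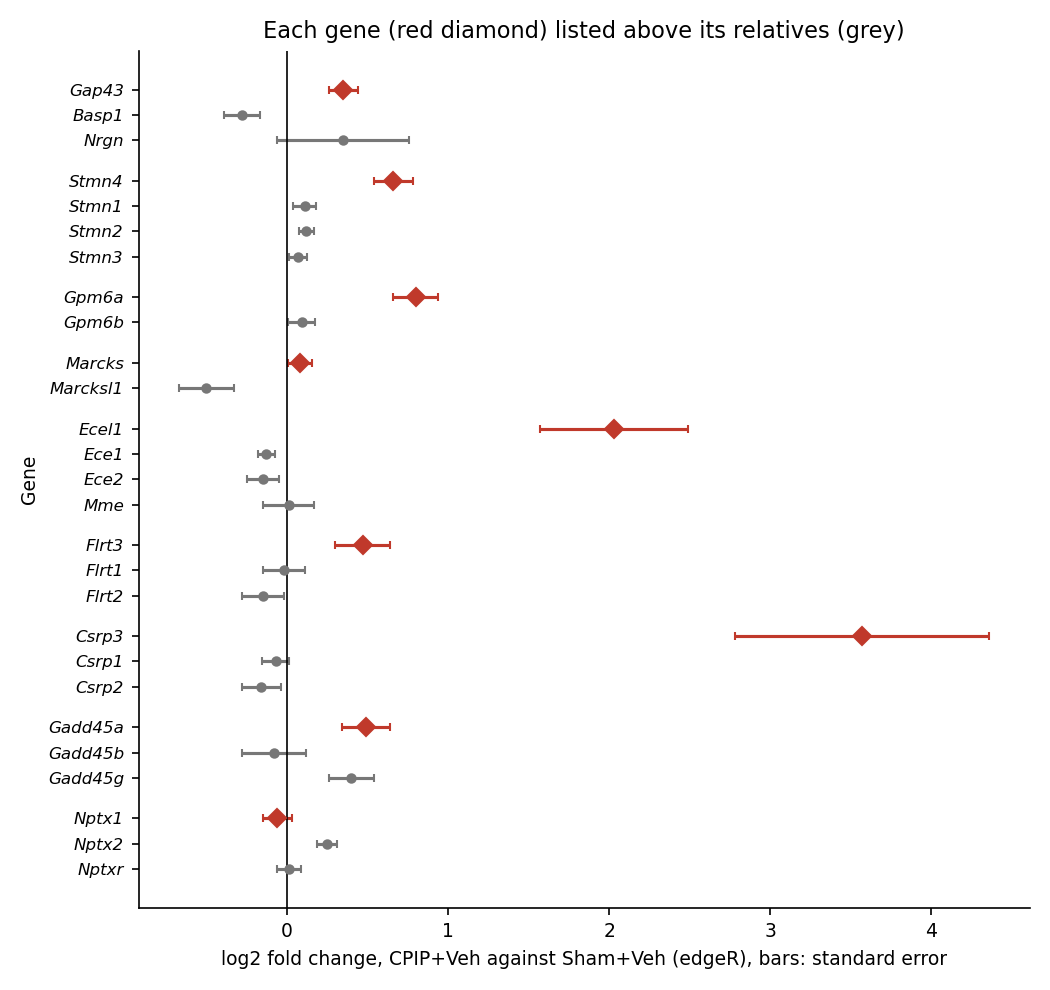
Fitted log2 fold change for CPIP+Veh against Sham+Veh (x axis) with its standard error, for each of the 9 tested genes (red diamonds) and the relatives compared with it (grey circles) beneath it. The relatives lie within 0.50 of 0, on either side, and Ecel1 (2.03) and Csrp3 (3.57) lie farthest out.

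Other genes of the pathway were described in the same way. Of 35 other growth cone and axon cytoskeleton genes, 26 had a log2 fold change above 0 in CPIP+Veh against sham, with a median of 0.07. None was called by edgeR. At an unadjusted p under 0.05, 6 were higher and 2 lower, where 4.94% of all genes tested had such a p. That share also stands beside the lists that follow. The lists were chosen with earlier results known, so nothing is read from these counts. Tubb2b, a neuronal beta-tubulin, stood at 628 and 613 CPM for sham, 738 and 823 for CPIP+Veh, with CPIP+ETA at 689 and 673. The kinesin heavy chain Kif5c had a log2 fold change of 0.22 (SE 0.054), and the third gene by p was Marcksl1.

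Transcription factors of axon injury were split, with 9 of 18 tested genes above 0, a median of 0.01, and 3 higher and 2 lower at an unadjusted p under 0.05. Sox11, a factor of neuronal growth programmes, stood at 2.65 and 2.74 CPM for sham, 4.35 and 5.50 for CPIP+Veh, with CPIP+ETA at 3.78 and 3.49. Egr1 had -0.92 (SE 0.25) and Atf3 2.00 (SE 0.66). Binding partners of FLRT3 and NPTX1 had a median of -0.01 over 16 tested genes, with 1 higher and 0 lower at an unadjusted p under 0.05. The 3 with the lowest p were Nptx2 (0.25), the AMPA receptor subunit Gria4 (0.36) and the latrophilin Adgrl3 (0.12).

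Targets of p53 and cell stress, the setting in which Gadd45a is best known, had a median of 0.02 over 17 genes, and 1 was higher and 0 lower at an unadjusted p under 0.05. Gadd45g (0.40), the cell cycle inhibitor Cdkn1a (0.37) and the stress protein Sesn2 (-0.25) had the lowest p. Restraints on axon growth, such as the myelin inhibitor Rtn4 (0.09), its receptor Rtn4r (-0.22) and the semaphorin receptor Nrp1 (-0.07), had a median of -0.02 over 16 genes, with 0 at an unadjusted p under 0.05. In CPIP+ETA against CPIP+Veh the medians of these 5 lists were between -0.03 and 0.03, and edgeR called 0 of their genes in any of the 3 comparisons.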

How the data were processed

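Bulk RNA-seq of 6 libraries was analysed. The authors deposited 1 table of expected counts, that is estimated and partly fractional reads for each gene, unscaled (32.7% of values were whole). Per the submitters' processing notes the build is Rnor 6.0; which aligner, counter, strand setting and annotation were used is not given in the sources used here. Per the labels' protocols, sequencing was on the BGISEQ-500. Blank entries (2907 genes) were read as 0 and values rounded to whole counts.

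R 4.3.3 and edgeR 4.0.16 were used: filterByExpr by group (minimum count 10, total 15), TMM scaling, 1 quasi-likelihood fit of all 6 libraries with group as the only term (3 residual degrees of freedom), p-values adjusted over 15531 genes and called under 0.05. SE was taken from the log2 fold change and its F statistic. Correlations used log2 CPM with a prior count of 2. DESeq2 1.42.0 and limma 3.58.1 were alternatives, with other scalings, filters, a replicate block and each library left out. Ratios of low counts have exact 95% intervals, except where sham had 0 counts. The fit was also run on simulated data, and the outcome is not given here, so nothing rests on it. Figures used matplotlib 3.10.9.

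The genes and lists were chosen with earlier results of these data known. Besides the 10 genes, the text names from each list the 3 genes with the lowest p in CPIP+Veh against sham, and for each gene the 3 most correlated genes of at least 10 CPM with no provisional symbol; other relatives and markers were named after their values were seen. Coordinates and sequences of promoters are of GRCr8 and were matched by gene identifier. A gene of the list of close relatives was left out and is not reported here.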

Additional observations from a re-analysis of the deposited data

How the results depend on the processing

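RLE, upper-quartile and library-total scaling, no filter, and a filter of 1 CPM in 2 libraries changed no direction and no call for the 9 tested genes. DESeq2 called more genes over the whole table: 49 for CPIP+Veh against sham, 21 for CPIP+ETA against CPIP+Veh and 50 for CPIP+ETA against sham, of which 3, 1 and 0 were among the 9 tested genes, where edgeR called 3, 0 and 3 genes and 0 of the 9. For CPIP+ETA against sham, limma-voom and the fit of only the 2 groups compared each called 1 gene. In the latter, where Csrp3 did not pass the filter, the median of the tested genes was 0.15 in place of 0.27. The cause of these differences was not tested.

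With each library left out in turn, edgeR called 0 of the 9 genes in any comparison. Genes called over the table ranged from 1 to 3 for CPIP+Veh against sham and from 1 to 2 for CPIP+ETA against sham. The median log2 fold change of the tested genes ranged from 0.30 to 0.70 for CPIP+Veh against sham, from -0.54 to -0.22 for CPIP+ETA against CPIP+Veh, and from 0.05 to 0.40 for CPIP+ETA against sham. Directions turned for Nptx1 in CPIP+ETA against CPIP+Veh (-0.23 to 0.03), and in CPIP+ETA against sham for Gap43 (-0.07 to 0.11), Flrt3 (-0.19 to 0.00) and Csrp3 (-0.41 to 1.96).

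The sources used here do not say whether the library numbers in the titles pair libraries across groups. Deviations of same-numbered libraries from their group means correlated at -0.0836, -0.14 and 0.161, which cannot decide it. With the number as a replicate block, edgeR called 3, 0 and 3 genes, 0 of the 9 in each, and the medians were 0.48, -0.42 and 0.27. Depth limits Sprr1a and Csrp3, with 28 and 84 counts over all libraries.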
